A study of Homo sapiens with 2 samples.

Results

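The chromatin around 10 cytokine genes was compared between 2 ATAC-seq libraries of SUM159 cells. The genes were IL1A, IL1B, IL1RN, CSF2, CSF3, IL6, CXCL1, CXCL2, CXCL3 and CXCL8, of 19970 protein-coding genes of the autosomes and chromosome X. They were listed by name and not picked by a rule on their peaks, but with earlier results of these data known. For each gene, the peaks of both libraries in the gene body and within 50 kb of any GENCODE release 44 start site (hg38) were taken. Of 74757 peaks in the No gRNA library 57 were in these windows, and of 75217 in the All gRNA library 54. The genes lie in 8 separate loci, because IL1A and IL1B, and CXCL2 and CXCL3, are neighbours whose windows share peaks: 8 No gRNA and 7 All gRNA peaks fell in 2 or more windows and were counted once.

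SUM159 is an established line of mesenchymal character from a triple-negative breast cancer. ATAC-seq marks open chromatin by where the Tn5 transposase inserts adapters. All cells carried dCas9-KRAB, a Cas9 that cannot cut, fused to a repressor domain, from a lentiviral vector, and were selected with puromycin. The No gRNA group was cells with this vector and no targeting guide (the empty vector control), and the All gRNA group also received 4 guides directed to the promoter of ZEB1, a repressor of epithelial genes. Each group held 1 library, so no difference has a replicate check and no p-value is given. The question for these genes is where their promoters and surrounding elements were open in either library, and how far the libraries differed there.

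These genes encode secreted signals of acute inflammation. IL1A and IL1B bind the same IL-1 receptor, and IL1RN encodes the antagonist that occupies this receptor without signalling. Signalling from the receptor leads to NF-κB, a factor family that binds κB sites in the promoters of many cytokine genes, and AP-1 and C/EBP factors act at several of the same promoters. CSF2 (GM-CSF) and CSF3 (G-CSF) drive the growth and release of myeloid cells and neutrophils, IL6 acts on many cell types through the shared receptor subunit IL6ST, and CXCL1, CXCL2, CXCL3 and CXCL8 draw neutrophils through CXCR2.

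The sequences upstream of the start sites were searched for these sites, on both strands, with the letters GGNNNTTCC for κB, TGANTCA for AP-1, TTGCNNAA for C/EBP and CAGGTG for the E-box that ZEB1 is known to bind. A κB match lay in the 200 bases upstream of the main start site (that of the Ensembl canonical transcript) in 7 of the 10 genes (IL1RN, CSF2, IL6, CXCL1, CXCL2, CXCL3 and CXCL8), while 15.4% of all 19970 promoters held one. AP-1 matches lay in 2 genes (IL1A and CXCL8; 3.75% of all promoters) and C/EBP matches in 3 (CSF3, IL6 and CXCL2; 5.41%). The E-box letters were in none of the 10 stretches and in 13.9% of all promoters, which says only that these letters were not in this window. The motifs were chosen because these genes are textbook targets of the factors, and a match is a description of the letters and not of binding.

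Upstream stretches are shown for the genes whose promoters are compared closely below, from hg38, on the strand of the gene, 5′ to 3′, with κB, AP-1 and C/EBP matches in capitals. Where a first exon of another transcript begins inside the stretch, only the bases before it are shown.
CSF2 promoter, chr5:132073589-132073788, plus strand: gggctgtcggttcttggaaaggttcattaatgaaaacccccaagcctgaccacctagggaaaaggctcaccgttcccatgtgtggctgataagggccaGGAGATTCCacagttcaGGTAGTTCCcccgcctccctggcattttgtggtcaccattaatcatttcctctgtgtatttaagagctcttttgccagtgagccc
CXCL1 promoter, chr4:73869193-73869392, plus strand: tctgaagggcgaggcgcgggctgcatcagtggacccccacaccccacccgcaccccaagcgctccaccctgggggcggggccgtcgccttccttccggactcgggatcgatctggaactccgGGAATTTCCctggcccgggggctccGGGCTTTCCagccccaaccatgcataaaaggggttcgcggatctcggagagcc
CXCL2 promoter, chr4:74099196-74099395, minus strand: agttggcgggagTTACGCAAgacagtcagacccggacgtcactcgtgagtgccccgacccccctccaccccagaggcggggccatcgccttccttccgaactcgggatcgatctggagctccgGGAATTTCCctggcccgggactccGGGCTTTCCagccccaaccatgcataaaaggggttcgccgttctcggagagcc
CXCL3 promoter, chr4:74038690-74038889, minus strand: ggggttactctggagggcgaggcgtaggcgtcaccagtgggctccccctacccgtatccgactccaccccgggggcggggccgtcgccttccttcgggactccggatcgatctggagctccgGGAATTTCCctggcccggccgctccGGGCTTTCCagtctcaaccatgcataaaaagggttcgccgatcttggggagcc
CXCL8 promoter, chr4:73740369-73740518, plus strand: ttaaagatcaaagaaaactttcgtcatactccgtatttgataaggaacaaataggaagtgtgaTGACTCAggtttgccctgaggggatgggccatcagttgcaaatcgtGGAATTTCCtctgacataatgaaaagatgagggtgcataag
IL6 promoter, chr7:22727000-22727146, plus strand: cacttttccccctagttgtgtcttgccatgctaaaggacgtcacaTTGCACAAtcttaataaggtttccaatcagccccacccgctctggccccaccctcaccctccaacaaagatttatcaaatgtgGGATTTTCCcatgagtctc

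CXCL1, CXCL2 and CXCL3 share the same pair of κB letters, GGAATTTCC and GGGCTTTCC, the second ending 45 bases upstream of the start in all 3 genes. Their 200 upstream bases were 77.2% to 80.8% identical to each other and 44.5% to 46.3% identical to those of CXCL8, which has 1 κB match with the letters GGAATTTCC and an AP-1 match 131 to 137 bases upstream. CSF2 has 2 κB matches with other letters, GGAGATTCC and GGTAGTTCC.

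Distal and intronic windows are shown for elements near CSF2, CXCL8, CXCL1 and IL1RN that only 1 library listed or whose ratio interval left out 1, from hg38, plus strand, 201 bases centred on the peak summit, with matches to the same motifs in capitals.
CSF2 downstream element, No gRNA summit, chr5:132086510-132086710: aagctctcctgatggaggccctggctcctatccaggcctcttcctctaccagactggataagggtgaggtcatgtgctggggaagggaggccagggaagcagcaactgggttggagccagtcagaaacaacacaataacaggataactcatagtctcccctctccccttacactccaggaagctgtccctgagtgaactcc
CXCL8 upstream element, All gRNA summit, chr4:73735347-73735547: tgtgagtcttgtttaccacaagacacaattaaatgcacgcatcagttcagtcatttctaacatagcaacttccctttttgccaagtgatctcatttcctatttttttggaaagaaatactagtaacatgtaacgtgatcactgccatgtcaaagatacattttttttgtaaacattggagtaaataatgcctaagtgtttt
CXCL1 downstream element, No gRNA summit, chr4:73917301-73917501: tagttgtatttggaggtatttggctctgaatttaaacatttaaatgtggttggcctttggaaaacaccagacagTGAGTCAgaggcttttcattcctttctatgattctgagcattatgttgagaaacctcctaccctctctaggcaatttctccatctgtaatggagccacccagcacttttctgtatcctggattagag
IL1RN intronic element, No gRNA summit, chr2:113124656-113124856: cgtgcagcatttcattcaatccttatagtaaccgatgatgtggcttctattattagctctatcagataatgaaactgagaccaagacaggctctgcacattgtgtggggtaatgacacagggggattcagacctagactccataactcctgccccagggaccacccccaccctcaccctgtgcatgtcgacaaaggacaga
IL1RN intronic element, All gRNA summit, chr2:113125404-113125604: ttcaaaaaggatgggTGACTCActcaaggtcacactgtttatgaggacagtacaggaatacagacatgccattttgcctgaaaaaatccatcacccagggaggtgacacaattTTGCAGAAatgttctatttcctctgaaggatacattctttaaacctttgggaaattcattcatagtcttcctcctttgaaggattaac
The CXCL1 downstream window and the All gRNA window of IL1RN hold an AP-1 match, the latter with a C/EBP match as well, and the other 3 windows hold no match. Across the 57 No gRNA and 54 All gRNA peaks of the 10 genes, AP-1 letters lay in 26.3% and 27.8% of summit windows, against 30.3% and 31.2% of all peaks of each list. κB letters lay in 10.5% and 9.26% of them, against 11.9% and 11.4% of all peaks. C/EBP letters lay in 17.5% and 18.5%, against 11.5% and 11.9%, which is 10 peaks in each list, and the E-box letters in 7.02% and 13.0%, against 11.6% and 13.1%.

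Each peak is given below by its summit pileup, the number of read ends stacked at the summit, which was recovered from the fold enrichment and p-value of the deposited lists. The depth of the All gRNA library was 0.743 times that of the No gRNA library, and ratios (All gRNA over No gRNA) were divided by this value. The 95% intervals are exact (Clopper-Pearson), cover counting error only, and take read ends as independent, which the 2 ends of a fragment are not. The median pileup over each whole list was 20 in No gRNA and 14 in All gRNA. The distance of a summit is given from the main start site, negative upstream.

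The promoters of the 10 genes (4000 bp either side of every start site) were open in both libraries with 1 exception. A promoter peak was present in both libraries for 9 genes and in No gRNA only for CXCL1, and 0 genes showed the reverse. For IL1RN, 1 of the 9, the peaks of the 2 libraries did not overlap. Among the 19970 genes, the share with a promoter peak in both was 71.3%, only in No gRNA 2.92%, and only in All gRNA 2.56%. Peaks at the promoters of the 10 genes numbered 12 in No gRNA and 11 in All gRNA. Of the 8 promoter peaks with a single partner in the other library, only that of CSF2 had a depth-scaled ratio whose interval left out 1.

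The IL-1 ligand genes had modest promoter peaks. IL1A had a summit 52 bp upstream of its start (chr2:112784444-112784705 in No gRNA, annotated as intergenic because it covers the upstream side). Its pileup was 11 in No gRNA against 9 in All gRNA, and the depth-scaled ratio 1.10 (0.403 to 2.92). IL1B had a summit 224 bp upstream (chr2:112836750-112837281) with pileups of 21 and 8, a ratio of 0.513 (0.196 to 1.20), and another 2970 bp upstream (chr2:112839510-112839920) with 24 and 18, a ratio of 1.01 (0.516 to 1.94). The peak nearest to the start of IL1B was the lower of the pair in both libraries, and its −log10 q was 11.9 and 3.35, but the interval of its ratio includes 1.

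Around IL1A and IL1B the strongest peak in both libraries was not theirs: at chr2:112764548-112765154, in the promoter of the neighbour CKAP2L, the pileup was 128 in No gRNA against 82 in All gRNA, a ratio of 0.862 (0.645 to 1.15). The intergenic stretch between the 2 ligand genes and beyond held further peaks in both libraries. The strongest distal one, 44706 bp upstream of IL1B (chr2:112881289-112881773), had pileups of 60 and 34 and a ratio of 0.763 (0.485 to 1.18). The 10 peaks with 1 partner at this locus had a median log2 ratio of -0.10, and 50% of them were lower in All gRNA. One further group, 2 No gRNA peaks of 9 and 10 read ends met by 1 All gRNA peak of 12, had a ratio of 1.61 (0.639 to 4.17) for the highest peak of each list.

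IL1RN, the antagonist gene, had the least open window of the 3 IL-1 genes, and its peaks differed in place between the libraries. No gRNA had 2 peaks and All gRNA had 4, and 1 of them was shared. Within an intron of IL1RN, the No gRNA peak had its summit 2842 bp upstream of the main start (chr2:113124630-113124841, pileup 15, −log10 q 11.2), and the All gRNA peak had its summit 2094 bp upstream (chr2:113125408-113125666, pileup 12, −log10 q 9.37). These are the 2 intronic windows printed above, and they do not overlap. At the depth of the other library the No gRNA peak would have a pileup of 11.1 and the All gRNA peak one of 16.1. A peak at the same background would be called from 5 read ends in All gRNA and from 6 in No gRNA, so both could have been listed in the other library. For the All gRNA peak even the highest pileup below that limit would leave the ratio's interval off 1, and for the No gRNA peak it would not. A narrow pileup under the 200 bp minimum peak length would not be listed, so absence from a list is not an absence of reads.

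The colony-stimulating factor gene CSF2 held the highest of the 42 depth-scaled ratios of shared peaks and, after CSF3, the lowest. Its promoter peak, 68 bp downstream of the start in the first exon (chr5:132073742-132074159), had a pileup of 10 in No gRNA against 22 in All gRNA. Scaled for depth the peak was 2.96 times higher in All gRNA (1.35 to 7.0). It was the lowest of the 7 peaks of the window in No gRNA, and in All gRNA only the peak 21127 bp downstream, at 24, was higher. Its −log10 q stood at the 13.8th percentile of the No gRNA list and the 74.0th of the All gRNA list, although the peaks that enter a list depend on its depth.

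The intergenic element 12821 bp downstream of CSF2 (chr5:132086462-132086804) moved the other way. Its pileup was 44 in No gRNA, the highest of the window, and 13 in All gRNA, where no peak of the window was lower. The depth-scaled ratio was 0.398 (0.196 to 0.752), and its −log10 q stood at the 81.3rd percentile of the No gRNA list and the 42.5th of the All gRNA list. The intervals of this element and of the promoter do not overlap. The other 5 peaks around CSF2 had pileups of 12 to 41 in No gRNA and 13 to 24 in All gRNA and ratios of 0.785 to 1.46, and every one of their intervals includes 1.

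CSF3 differed from CSF2 in that its promoter did not separate the libraries. The peak 1426 bp upstream of its start (chr17:40013823-40014225) had pileups of 23 and 17, a ratio of 0.995 (0.499 to 1.95). This peak lies in an intron of a gene known only by its identifier, ENSG00000265799. The peaks on the far side of CSF3 lie in and near MED24, a subunit gene of the Mediator complex. There the summit 11801 bp downstream of the CSF3 start, in an intron of MED24 and within its promoter window (chr17:40027090-40027372), had pileups of 34 and 10 and a ratio of 0.396 (0.174 to 0.819). The strongest peak of the locus, at the promoter of the proteasome gene PSMD3 (chr17:39980277-39981002), had pileups of 128 and 85 and a ratio of 0.894 (0.671 to 1.18). Of the 6 shared peaks around CSF3, 100% had a ratio below 1, with a median log2 ratio of -0.26, although 2 of them had ratios above 1 when scaled by peaks of similar height.

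IL6 was open across its promoter in both libraries. Between chr7:22726496 and 22727577, No gRNA had 2 peaks with pileups of 30 and 26 and All gRNA had 2 with pileups of 18 and 14, and the highest summits gave a ratio of 0.807 (0.424 to 1.50). An antisense gene, IL6-AS1, covers the same bases. A peak inside IL6 itself was found in No gRNA only: at 4330 bp downstream of the start, in an exon of IL6 (chr7:22731337-22731696), the pileup was 25 and the −log10 q 13.4. This peak also lay within 4000 bp of a start site of STEAP1B, as did the promoter peaks of IL6. Its pileup would be 18.6 at the depth of All gRNA, against a call limit of 8. The peak was past counting error by the measure used for IL1RN. The strongest peak of the locus, 8806 bp upstream in an intron of STEAP1B (chr7:22717882-22718753), had pileups of 34 and 29 and a ratio of 1.15 (0.675 to 1.94).

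Among the chemokine genes the promoter of CXCL1 stood apart from those of CXCL2, CXCL3 and CXCL8, although its upstream κB letters are those of CXCL2 and CXCL3. CXCL1 had a promoter peak in No gRNA only, 120 bp downstream of the start (chr4:73869369-73869630), with a pileup of 9 and a −log10 q of 6.37. At the depth of All gRNA this would be 6.69 read ends against a call limit of 4, and the loss was within counting error. The only shared peak of its window, 48008 bp downstream (chr4:73917129-73917600), had pileups of 51 and 20 and a ratio of 0.528 (0.298 to 0.901). Under a scaling by peaks of similar height the interval included 1, at 0.601 (0.340 to 1.03).

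The CXCL2 promoter was the strongest of the 4 in No gRNA, with a pileup of 52 there and 28 in All gRNA at 123 bp upstream (chr4:74099038-74099903) and a ratio of 0.725 (0.441 to 1.17). CXCL8 had pileups of 46 and 31 at 50 bp downstream of its start (chr4:73740444-73740817), a ratio of 0.907 (0.556 to 1.46). CXCL3 had 23 and 16 at 201 bp upstream (chr4:74038529-74039064), a ratio of 0.936 (0.462 to 1.85). All 3 intervals include 1, so no change was detectable at this depth. These genes are related copies. Of the 50-base stretches in the CXCL3 promoter peak, 21.9% in All gRNA and 5.34% in No gRNA occur again in the chemokine region. The share was 3.18% in the No gRNA peak of CXCL2 and 0% in its All gRNA peak. In the CXCL1 and CXCL8 peaks it was 0%. Reads at CXCL2 and CXCL3 are therefore partly uncertain. Copies outside the chemokine region were not searched for.

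The distal peaks of the chemokine loci held 2 peaks found in 1 library with a −log10 q of at least 10. An All gRNA peak 5122 bp upstream of CXCL8 (chr4:73735328-73735573) had a pileup of 14 and a −log10 q of 10.2. It would be 18.8 at the depth of No gRNA, where the call limit was 7, and was past counting error. A No gRNA peak 18094 bp upstream of CXCL3 (chr4:74056656-74056925) had a pileup of 12 and a −log10 q of 10.0, and was within counting error. The strongest No gRNA peak around CXCL8, 35785 bp upstream (chr4:73704527-73705049), had pileups of 59 and 28 and a ratio of 0.639 (0.392 to 1.02), while the CXCL8 promoter was the strongest there in All gRNA. Between CXCL2 and MTHFD2L, a folate enzyme gene, the highest pileup was 10208 bp upstream of CXCL2, at 53 and 32, a ratio of 0.812 (0.507 to 1.28). The largest −log10 q there belonged to a peak 18107 bp upstream in an intron of MTHFD2L, with pileups of 51 and 26 and a ratio of 0.686 (0.411 to 1.12).

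**Figure D1:**
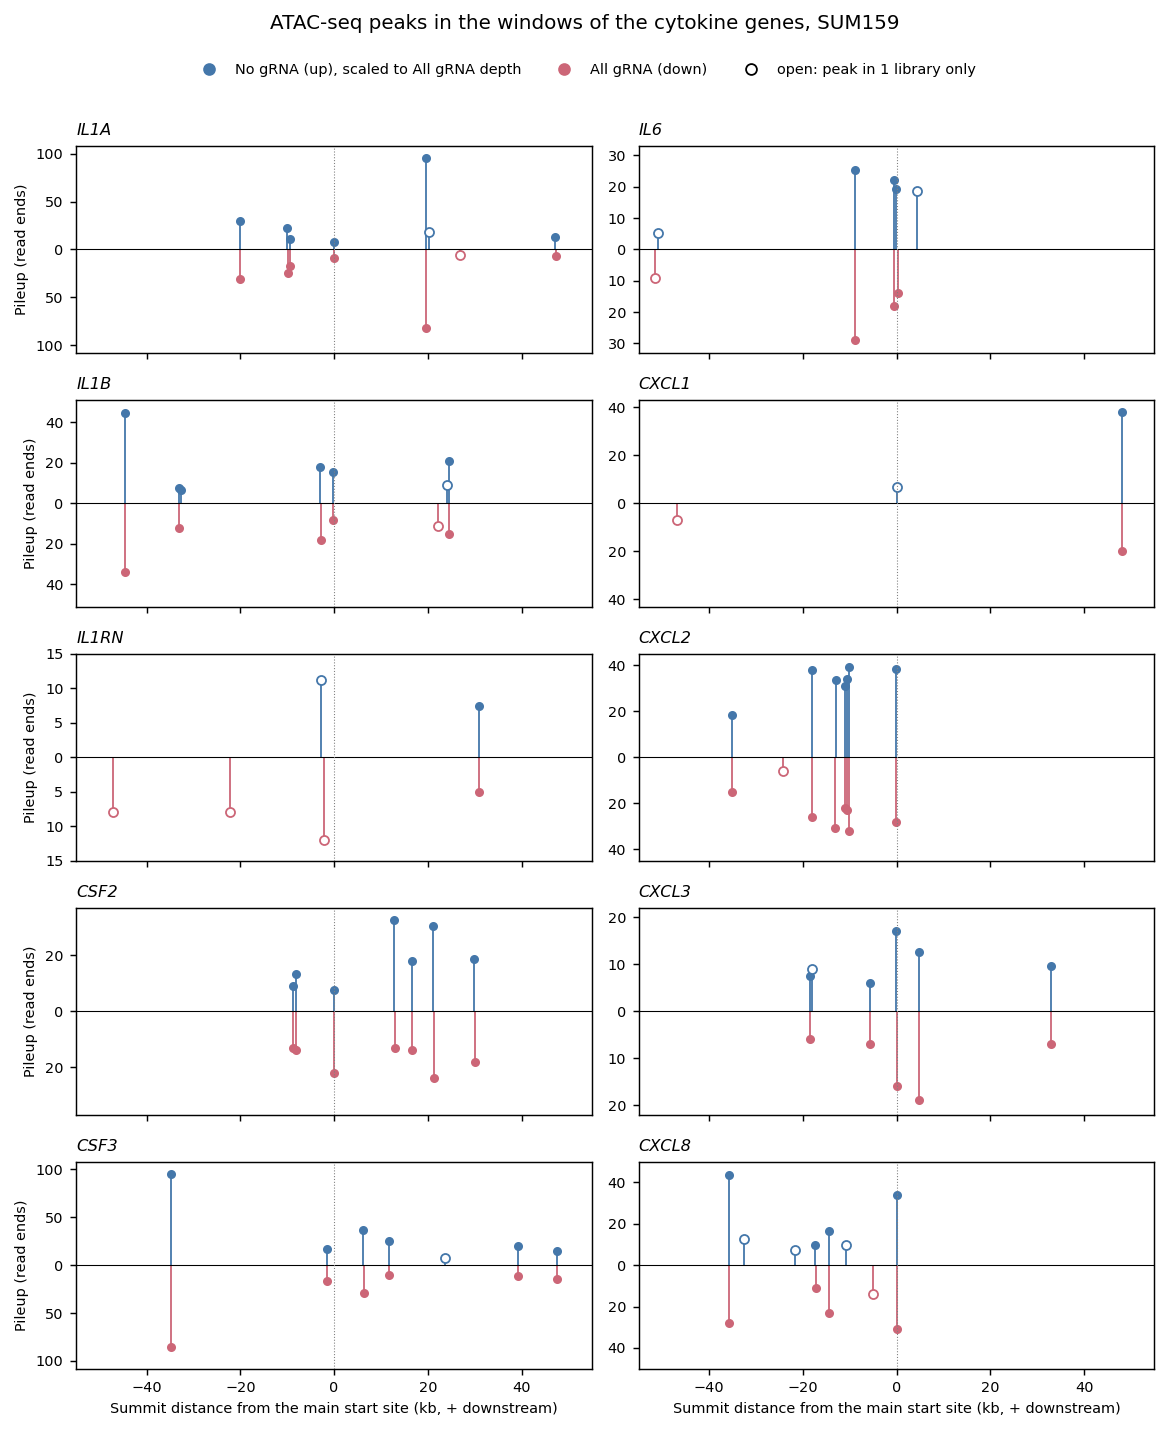
Summit pileup in read ends (y axis) against the distance of the summit from the main start site of the gene in kb (x axis), with No gRNA upward, multiplied by the depth ratio of 0.743, and All gRNA downward; each peak is drawn once, at 1 gene, and open points are peaks found in 1 library only. The CSF2 panel shows the promoter peak longer downward and the element at 12821 bp longer upward, and IL1RN shows 1 shared peak.

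Peaks found in 1 library only were about as frequent around these genes as elsewhere. Of 24 No gRNA peaks in any promoter, 4 had no overlapping All gRNA peak, against 17.5% of all No gRNA promoter peaks, and of 33 distal ones 7 had none, against 28.3%. In All gRNA these were 3 of 23 promoter peaks, against 12.5%, and 6 of 31 distal peaks, against 29.1%. The 11 No gRNA peaks had a median pileup of 12 (7 to 25) and the 9 All gRNA peaks one of 8 (6 to 14), close to the medians of 11 and 8 over all such peaks. Past counting error was 1 of 57 No gRNA peaks (IL6, 4330 bp downstream), against 3.02% of that list, and 2 of 54 All gRNA peaks (IL1RN and CXCL8), against 3.74%.

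The shared peaks gave a like picture. Of 42 peaks with a single partner, 29 were lower and 13 higher in All gRNA after depth scaling, a split that became 25 and 17 with scaling by the median of all shared peaks, and 22 and 19 with scaling by peaks of similar height. Past 2-fold with an interval off 1 were 2 lower peaks (CSF2 at 12821 bp and CSF3 at 11801 bp), against 3.27% of all 48041 shared peaks, and 1 higher peak (the CSF2 promoter), against 2.44%. Whatever the fold, 3 intervals lay below 1, against 8.85%, and 1 above, against 3.42%. None of these counts stands above its background share by more than 1 peak.

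After depth scaling the median log2 ratio was -0.26 over the 42 peaks, of which 69.0% were lower, and -0.11 over all shared peaks, of which 58.1% were. By place, and scaled for depth alone, the 8 peaks at promoters of the 10 genes had a median of -0.05, the 10 at promoters of other genes -0.43, and the 24 distal peaks -0.30. Over the whole lists the medians were -0.19 for promoter and -0.04 for distal peaks. The median over the 42 peaks was -0.15 with scaling by the median of all shared peaks and -0.09 with scaling by peaks of similar height. In the whole lists the ratio moved with peak height, from a median of 0.11 over the 10083 pairs of lowest summed pileup to -0.24 over the 9580 pairs of highest. Among loci with 4 or more shared peaks, medians ran from -0.31 around CXCL2 and CXCL3 (12 peaks) to 0.02 around CXCL8 (4 peaks), with -0.05 around CSF2 (7 peaks).

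**Figure D2:**
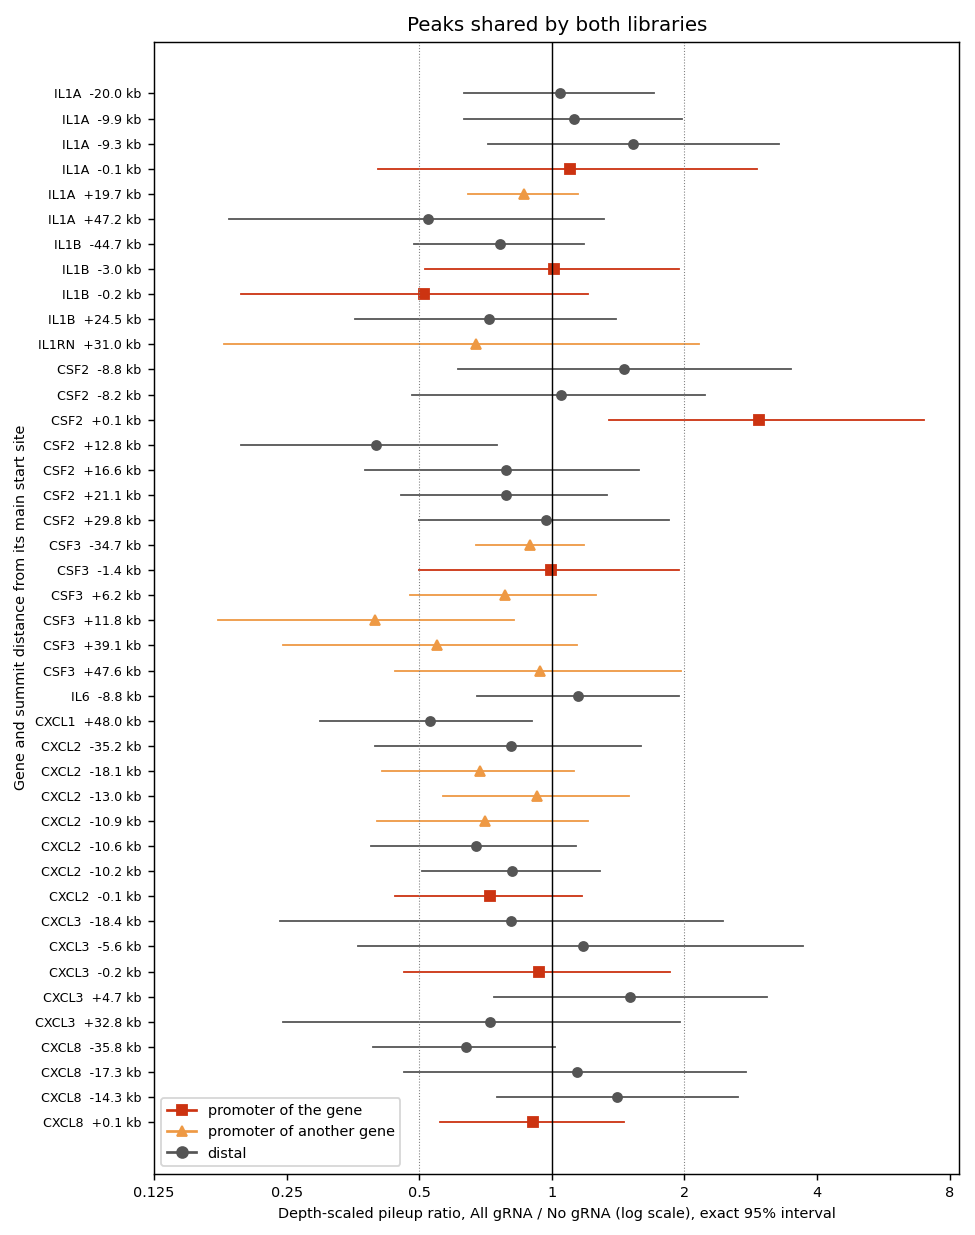
Depth-scaled pileup ratio, All gRNA over No gRNA (x axis, log scale), for the 42 peaks with 1 partner in the other library, ordered by gene and distance from its main start site (y axis); lines are exact 95% intervals for counting error, and colours and shapes mark promoters of the gene, promoters of other genes and distal peaks. The CSF2 promoter lies to the right of 1, the elements of CSF2 at 12821 bp, CSF3 at 11801 bp and CXCL1 at 48008 bp lie to the left, and the other 38 lines cross 1.

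Length under peaks depends on how much was called in each library. All gRNA had the shorter length in 7 of the 10 windows and the longer in 3. IL1RN went from 503 bp in No gRNA to 962 bp in All gRNA, IL1B from 3928 to 4140 bp, and CSF2 from 2838 to 2872 bp. CXCL2 went from 3747 to 2948 bp, IL6 from 2394 to 1703 bp, and CSF3 from 3288 to 2614 bp. These lengths depended on the threshold: when only peaks reaching a −log10 q of 5 were kept in each list, the differences were 59 bp at IL1RN, 12 bp at IL1B, 34 bp at CSF2, -1199 bp at CXCL2, -1082 bp at CXCL3 (-474 bp with all peaks), -674 bp at CSF3 and -474 bp at IL6. The median difference was -271.5 bp, and the median All gRNA length was 88.0% of that in No gRNA. Over the 19092 protein-coding genes with a peak in their window the difference was -215 bp, the length 89.9%, and 68.9% were shorter. CXCL1 had the shortest window but for IL1RN in No gRNA and the shortest in All gRNA, at 734 and 708 bp.

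**Figure D3:**
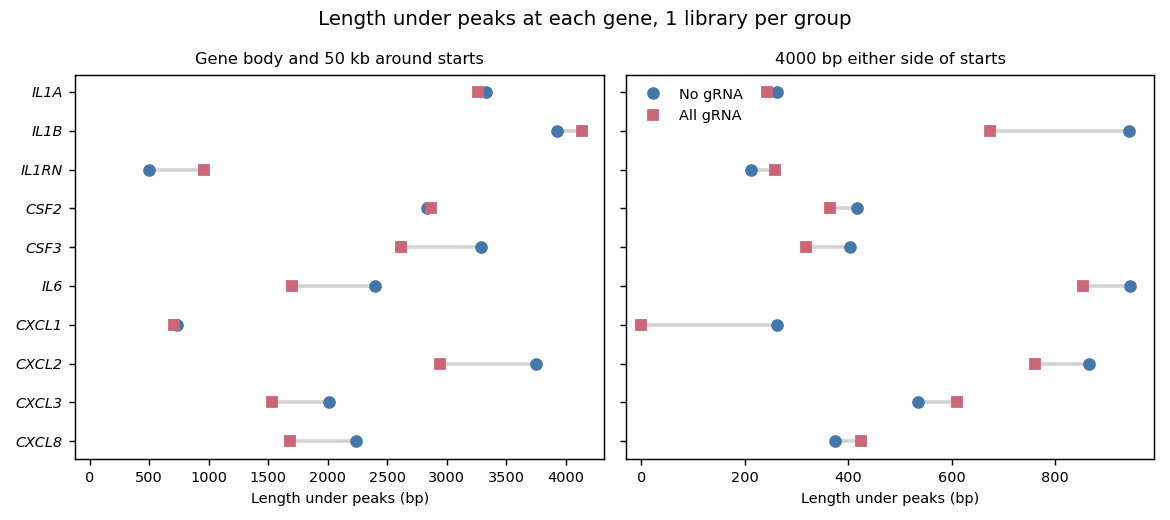
Length under peaks in bp (x axis) for each gene (y axis) in No gRNA (blue circles) and All gRNA (red squares), over the gene body and 50 kb around its start sites (left) and over 4000 bp either side of the start sites (right). IL1RN lies to the right in All gRNA in both panels, and CXCL1 has no length under a promoter peak in All gRNA.

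Promoters were also compared for 16 receptor and antagonist genes. The list included receptor genes for related ligands, and not only those for these cytokines. A promoter peak was present in both libraries for 8 genes (IL1R1, IL1RAP, IL1RL1, IL18R1, SIGIRR, CSF3R, IL6R and IL6ST). It was present in All gRNA only for 2 (IL1R2, a decoy receptor, and CXCR1, a CXCL8 receptor). The other 6 had a promoter peak in neither library (CXCR2, CSF2RA, CSF2RB, IL1RL2, IL18RAP and ACKR1). Of all 19970 genes, 71.3% had one in both, 2.56% in All gRNA only and 23.2% in neither. The CXCR1 peak had a pileup of 7, which would be 9.42 at the depth of No gRNA against a call limit of 5, and was within counting error. That of IL1R2 overlapped a No gRNA peak lying just outside the promoter window. The 15 shared promoter peaks of the receptor and antagonist genes, counted gene by gene, had a median log2 ratio of -0.35, and 0 passed 2-fold. A peak with pileups of 23 and 11 lay at promoters of both IL1RL1 and IL18R1 and was counted for each. Over all shared promoter peaks the depth-scaled median was -0.19. Of the 15 intervals, 2 lay below 1 and 1 above, against 8.85% and 3.42% of all shared peaks, promoter and distal together. IL6R, the IL-6 receptor gene, had pileups of 89 and 37 and a ratio of 0.559 (0.371 to 0.830). This peak lay in an intron, 26504 bp downstream of the main start and near another start of the gene. At IL1R1, the IL-1 receptor gene, a peak at an upstream start (-78248 bp) had pileups of 71 and 34, a ratio of 0.644 (0.415 to 0.983). Another, in an intron (-76708 bp), had 24 and 33, a ratio of 1.85 (1.06 to 3.27). At the main start of IL1R1 the pileups were 36 and 21. The ratio there was 0.785 (0.435 to 1.38), an interval that includes 1. IL1RAP, the signalling partner of the IL-1 receptor, had pileups of 151 and 122 at its start, a ratio of 1.09 (0.849 to 1.39).

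Of 25 signalling genes between receptor and nucleus, 24 had a promoter peak in both libraries, against 71.3% of all 19970 genes, and IRAK3, an inhibitor of the pathway, had 1 in All gRNA only, with a pileup of 7 (within counting error). Their 35 shared promoter peaks had a depth-scaled median log2 ratio of -0.32, against -0.19 over all shared promoter peaks. Of their intervals, 6 lay below 1 and 0 above. Over all shared peaks these shares were 8.85% and 3.42%, but most of those peaks are distal. Ratios were below 1 for 67.7% of all shared promoter peaks and 52.8% of distal ones, so these shares are not a like background. Interval shares over promoter peaks alone were not computed. TNFAIP3, which encodes an inhibitor of NF-κB signalling (A20), held the only shared promoter peak of this list past 2-fold. There, 6354 bp downstream of its main start, in an intron, the pileup was 45 in No gRNA against 12 in All gRNA, a ratio of 0.359 (0.173 to 0.690). At the start of TNFAIP3 the pileups were 110 and 54, a ratio of 0.661 (0.468 to 0.923).

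Most other ligand genes of the same families and loci had no promoter peak. Of 16, 12 had a promoter peak in neither library, against 23.2% of all 19970 genes. Among the 12 were CXCL5, CXCL6, PPBP, PF4 and PF4V1 of the chemokine cluster, the IL-36 genes beside IL1RN, and IL3 beside CSF2. IL11 had a promoter peak in both, IL18 in No gRNA only (pileup 12), and IL33 (pileup 8) and LIF (pileup 9) in All gRNA only, each within counting error. Of 7 other inflammatory target genes, 5 had a promoter peak in both, against 71.3% of all genes, and CCL2 and TNF had one in neither. The 5 genes held 7 shared peaks of median log2 ratio -0.21, with 0 past 2-fold.

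Among markers, promoter peaks were present in both libraries for 4 of 4 mesenchymal genes (VIM, CDH2, AXL and SNAI2), against 71.3% of all 19970 genes. The leukocyte genes PTPRC, SPI1, CD3E and LYZ had no promoter peak in either library, as held for 23.2% of all genes. Of 4 epithelial genes, EPCAM had a promoter peak in both libraries, at an upstream start (-24196 bp from its main start). CDH1 had only a No gRNA peak of 7 read ends, within counting error. It lay in an intron (chr16:68800498-68800697), far from the main start at 68737292. In neither library did a peak lie within 4000 bp of the main start of EPCAM or CDH1. ESRP1 and GRHL2 had no promoter peak. At the targeted gene, 2 No gRNA peaks at the ZEB1 start, with pileups of 25 and 27 and call limits of 9 in All gRNA, had no counterpart in All gRNA.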

How the data were processed

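ATAC-seq peak lists of 2 SUM159 libraries, 1 per group by the transduction label, were analysed. Per the labels and the study's methods, the authors used fastp for trimming and Bowtie2 for alignment to hg38, took out duplicate and mitochondrial reads, and called peaks in each library separately with MACS2. The deposited lists hold a score (not used), a fold enrichment (a ratio over the local background), and a −log10 p-value and −log10 q-value per peak.

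The files give no library totals. Summit pileup and background were solved from these deposited values, on the assumption that MACS2 ran without a control, in which case it writes the fold as (pileup + 1) / (background + 1) and a Poisson p. No control is named in the sources used here. Whole pileups were recovered for 100% of peaks, and for 100% of 20000 simulated peaks. The simulated peaks were made with the same formulas, so their recovery checks the solving step and not the assumption of no control. The lowest background, 0.652 in No gRNA and 0.484 in All gRNA, set the depth ratio of 0.743.

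Peaks were shared when they overlapped by at least 1 bp. A peak of 1 list was past counting error when the highest pileup that the other list could have left uncalled would still give a ratio whose 95% interval leaves out 1. Alternatives were other overlaps, −log10 q thresholds, window and promoter widths, and scalings.

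The members, gene lists, motifs and measures were chosen with earlier results of these data known, and the study had singled out CSF3 and IL1B from RNA and methylation of this cell line, so none is independent of the data. Named were every peak within 4000 bp of a start site of the 10 genes, one-library peaks with −log10 q of at least 10, shared peaks whose interval leaves out 1, the strongest peaks of each locus, and pathway genes with a promoter peak in 1 library or past 2-fold. A few others were named as examples after their values were seen. The result for 1 leukocyte marker gene is not reported here. Python 3.11.15, numpy 2.4.6, pandas 2.3.3, scipy 1.17.1, biopython and matplotlib were used.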

Additional observations from a re-analysis of the deposited data

How the results depend on the processing

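Of 58 values computed under alternatives, 42 were classed as the same, 16 as moved and 0 as reversed. Classed as the same does not mean unchanged. Peaks in No gRNA only went from 11 to 16 with summits within 150 bp. The length difference at IL6 went from -691 to -474 bp with a −log10 q of at least 5. Both were classed as the same. Many of the 42 were ratios of single peaks under another scaling. Peaks in No gRNA only numbered 11, and 21 with an overlap of 50% of both peaks required, 3 with a −log10 q of at least 10, 5 in windows of 20 kb and 21 in windows of 100 kb. Peaks in All gRNA only numbered 9, and 18 with the 50% overlap, 5 with a −log10 q of at least 5, 1 with a −log10 q of at least 10 and 5 in windows of 20 kb. The median difference in length under peaks was -271.5 bp, and -582.5 bp in windows of 100 kb and -471.5 bp with a −log10 q of at least 5. The windows and thresholds change which peaks are counted by their construction. CXCL1 was the single gene with a promoter peak in 1 library under all 3 alternatives tried for that count.

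Of the 4 intervals that left out 1, 4 also did when ratios were scaled by the median over all shared peaks, which takes the median log2 ratio of all shared peaks from -0.11 to 0, and 3 when scaled by peaks of similar height. No paired analysis was possible because only 1 library represents a group. Depth limits the low peaks most: at pileups of 21 and 8, the ratio of 0.513 at IL1B had an interval that includes 1.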

Other observations

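Among the 4 lists of pathway genes, promoter peaks numbered 73 in No gRNA and 86 in All gRNA, of which 8 and 14 had no counterpart in the other library, against 17.5% and 12.5% of all promoter peaks of each list. Of these, 1 in No gRNA and 4 in All gRNA were past counting error, against 3.02% and 3.74% of all peaks, promoter and distal together. Both counts stand near these shares, which were not computed for promoter peaks alone. The following genes were named after their values were seen. The No gRNA peak lay in an intron of NFKBIZ, which encodes a nuclear regulator of NF-κB induced by IL-1, with a pileup of 25 against a call limit of 7 in All gRNA. The All gRNA peaks lay at BIRC3, an inhibitor of apoptosis gene induced by NF-κB (pileup 22, call limit 12 in No gRNA), at ICAM1, an adhesion molecule that leukocytes bind (pileup 14, call limit 7), in an intron of IL11, an IL-6 family cytokine gene (pileup 15, call limit 9), and within 4000 bp of a start of CEBPD (pileup 32, call limit 15). Their read counts have no replicate check.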
